A study of Mus musculus with 31 samples.

Results

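Embryoid bodies (EBs) sampled on day 8 of differentiation fell into 2 sets of 3 arrays that differed from each other in visceral endoderm, cardiac, matrix and embryonic stem (ES) cell genes. The sets are replicates 2, 4 and 6, called the even-numbered arrays here, and replicates 1, 3 and 5, called the odd-numbered arrays. They are 6 of the 31 arrays of the series, and they were chosen by the measured signals themselves, since earlier results of the same values showed them apart in endoderm, cardiac and ES cell genes. Differences between the sets are therefore given as descriptions, without a test. The replicate numbers carry no meaning in the labels, which give no culture, date or batch.

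The series followed B6 mouse ES cells as they differentiated, to learn which genes turn on and off together. The cells were grown on mouse embryonic feeder cells with LIF, the cytokine that keeps mouse ES cells undifferentiated. Feeder cells were then depleted, and cells passaged on gelatin made up 6 arrays. A further 6 arrays came from ES cells sorted by flow cytometry for a GFP reporter of Oct4. EBs were made from the gelatin cells by moving them to nonadherent dishes and removing LIF, with part of the medium replaced every few days, which were sampled on day 4 (7 arrays), day 8 (6 arrays) and day 14 (6 arrays). All day 8 arrays share strain, medium and protocol, and only the replicate number tells them apart. The methods call the replicates biological samples, but nothing states that they were separate cultures, so the spread between arrays may be partly technical. An EB mixes many cell types, and in such bulk RNA fewer cells of a type and less RNA per cell cannot be told apart.

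An EB is a floating ball of ES cells that copies early steps of the embryo. Its surface turns into visceral endoderm, a yolk sac epithelium that secretes apolipoproteins, transthyretin and fibrinogen much as the liver does. Inside, cells leave pluripotency through loss of factors such as OCT4 (Pou5f1) and REX1 (Zfp42), and give rise to mesoderm, including contracting heart muscle, blood islands with embryonic globins, endothelium and connective tissue, and to neural ectoderm. These programs switch on at different times.

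The values were the authors' normalized signals, on a linear scale, for 12422 probe sets of the MgU74Av2 array after control probe sets were left out. The median signal of an array lay between 553 and 638. It was 609, 600 and 592 in replicates 2, 4 and 6 of day 8, and 585, 564 and 584 in replicates 1, 3 and 5. Day 4 arrays lay at 559 to 592 and day 14 arrays at 613 to 638. The even-numbered and day 14 arrays were thus slightly brighter than the odd-numbered and day 4 arrays, without overlap. The part of this shift in the differences was not tested. Log2 differences were taken after raising every signal below 59.6 to that value. Named genes are given by their brightest probe set with a single gene symbol, which covered 8251 genes.

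As whole profiles, the even-numbered arrays correlated with each other at r = 0.986 to 0.994 and the odd-numbered arrays at 0.994 to 0.996, across 12422 probe sets. Between the sets r ran from 0.972 to 0.990. Replicate 6 was the even-numbered array nearest to the odd-numbered ones, at 0.986 to 0.990, and replicate 2 the farthest, at 0.972 to 0.976. With the other even-numbered arrays replicate 6 correlated at 0.986 to 0.989, no higher than with the odd-numbered ones. By whole profile replicate 6 was therefore not closer to its own set. Over all 6 day 8 arrays the median SD of a probe set was 0.139 on the log2 scale. It was 0.116 within the even-numbered and 0.092 within the odd-numbered arrays. The range over arrays reached 4-fold at 78 probe sets over all 6 arrays, but at 3 within the even-numbered and 1 within the odd-numbered arrays. A range over 3 arrays tends to be smaller than one over 6, and the sets were chosen to differ. Day 14 had 17 such probe sets over 6 arrays. Day 4 had 260 over 7 arrays, and there replicates 6 and 7 stood apart from replicates 1 to 5, with r of 0.947 to 0.978 between them against 0.987 to 0.993 within the first 5.

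Most of the large differences were genes that were higher in the even-numbered arrays. A difference counted here when the means lay at least 2-fold apart and no array of one set overlapped the other. By that rule 190 of 12422 probe sets (1.53%) were higher in the even-numbered arrays and 43 (0.346%) in the odd-numbered arrays. By gene this came to 123 (1.49%) and 33 (0.4%) of 8251. The even-higher count depended on replicate 6, as it became 322 without that array, and 143 to 209 when any other day 8 array was left out. With no minimum size, 1490 genes (18.1%) were higher in every even-numbered array than in any odd-numbered one, and 1263 (15.3%) were lower, so small shifts ran in both directions. Just inside the 2-fold limit lay Heph at 1.00 and Chchd10 at -1.01 on the log2 scale, and just outside lay Cavin2 at 0.99 and Ldhc at -0.99.

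Day 4 and day 14 served as guides to how far each array had moved, and they were compared without any day 8 array in the fit. Between them 3123 probe sets (25.1%) rose and 2417 (19.5%) fell (limma, Benjamini-Hochberg adjusted p under 0.05). With each array centered on its median, 2106 rose and 4491 fell, so that 31.9% rather than 56.4% of the changed probe sets were higher at day 14, and with quantile normalization it was 40.2%. The probe sets that changed at least 2-fold in the same fit, 569 higher and 174 lower at day 14, then gave each array a position. On this scale 0% is the mean of day 4, 100% is the mean of day 14, and an array's position is the median over the probe sets.

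The even-numbered arrays lay most of the way to day 14 and the odd-numbered arrays nearer to day 4. For genes higher at day 14, replicates 2, 4 and 6 lay at 85.3%, 72.2% and 50.05%, a mean of 69.2% ± 17.8 (SD, n = 3). Replicates 1, 3 and 5 lay at 28.4%, 23.2% and 18.3%, a mean of 23.3% ± 5.08 (SD, n = 3). Every even-numbered array was thus ahead of every odd-numbered one, and the even-numbered arrays were the more scattered, since replicate 6 sat between its companions and the other set. Of the 569 probe sets, 539 (94.7%) had an even-numbered mean nearer to day 14.

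**Figure D1:**
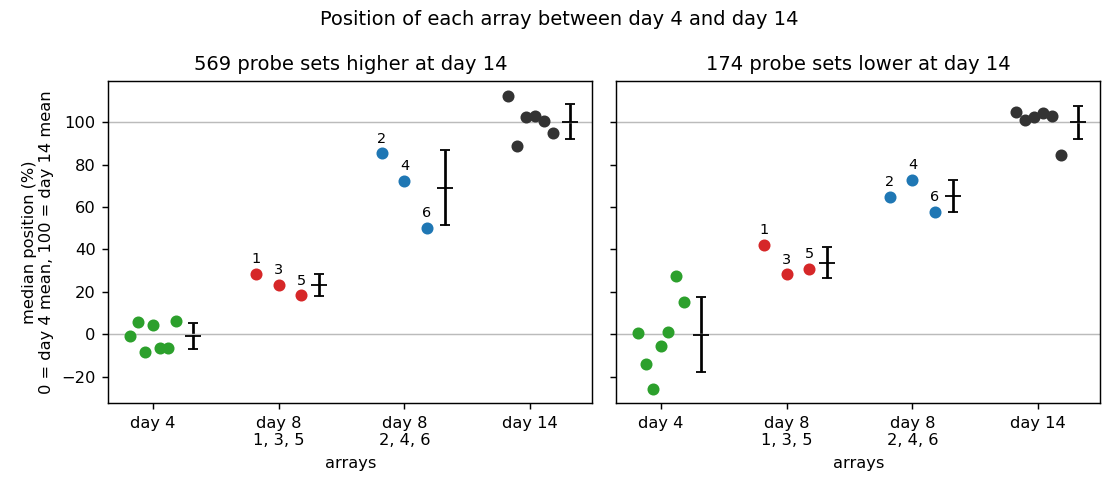
Median position of each array between day 4 (0%) and day 14 (100%), for probe sets higher (left) and lower (right) at day 14. Points are arrays, numbers are day 8 replicates, and bars give mean ± SD. Replicates 2, 4 and 6 lie above replicates 1, 3 and 5 on both sides, and the day 4 arrays scatter more on the right than on the left.

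For genes lower at day 14, replicates 2, 4 and 6 lay at 64.8%, 72.7% and 57.6%, and replicates 1, 3 and 5 at 42.0%, 28.2% and 30.8%. The means were 65.0% ± 7.57 and 33.6% ± 7.32 (SD, n = 3 each), again with no overlap. At 147 of these 174 probe sets (84.5%) the even-numbered mean was the one nearer to day 14. This scale was less firm, because the day 4 arrays themselves ran from -25.7% to 27.6%. Without day 4 replicates 6 and 7 the positions were 79.3% and 61.9% on the falling genes, and 74.6% and 32.8% on the rising ones.

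The pace from day 4 to day 14 covered most of the called genes, but not all. Of the 123 genes higher in the even-numbered arrays, 101 also rose from day 4 to day 14 (27.1% of all genes), 5 fell (20.1% of all genes), and 17 did not pass that test. Of the 33 genes higher in the odd-numbered arrays, 24 fell, 3 rose and 6 did not pass. Across 12422 probe sets, the difference between the sets correlated with the change from day 4 to day 14 at r = 0.62. These 2 measures share no array, although probe sets are not independent and all arrays were normalized together. The same difference correlated at r = -0.60 with sorted ES cells minus the mean of the gelatin, day 4 and day 14 groups. With day 4 minus gelatin r was -0.27. Both set means lay within the range of the day 4 and day 14 arrays at 85 of the 123 even-higher genes and 19 of the 33 odd-higher genes. Of all genes, 86.4% did so. Only the odd-numbered mean lay beyond every day 4 and day 14 array at 26 and 14 genes, compared with 8.99% of all genes. Only the even-numbered mean did so at 11 and 0 genes, compared with 3.1% of all.

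**Figure D2:**
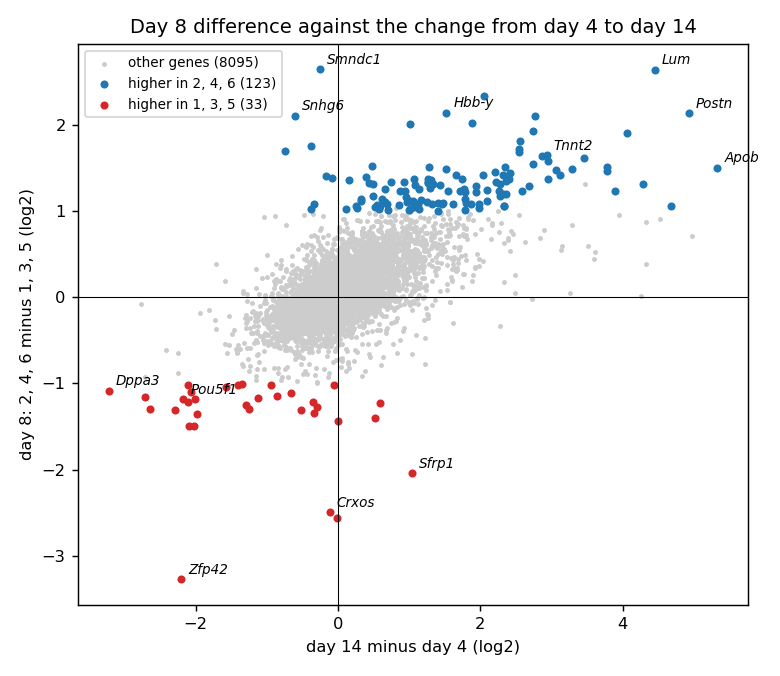
Each point is a gene, with the log2 change from day 4 to day 14 on the x axis and the log2 difference between replicates 2, 4, 6 and replicates 1, 3, 5 on the y axis. Genes called higher in the even-numbered (blue, 123) and odd-numbered arrays (red, 33) lie mostly in the upper right and lower left. Smndc1, Snhg6, Crxos and Sfrp1 are exceptions.

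Among 22 gene lists, those for pluripotency, imprinted genes and visceral endoderm had the largest median differences. The median over the 33 pluripotency genes measured was -0.55 on the log2 scale, even minus odd, against 0.01 over all 8251 genes. It was 0.49 over 16 imprinted genes and 0.38 over 39 visceral endoderm genes. Lists with a few large members and a median near 0.1 were fibroblast and matrix (0.09), neural (0.12), cardiac muscle (0.13) and endothelium (0.11). The medians of these lists and of imprinted genes moved with the floor, the dim probe sets or the choice of probe set, as given at the end. The lists were compiled with earlier results of these data known, and their medians are descriptions.

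**Figure D3:**
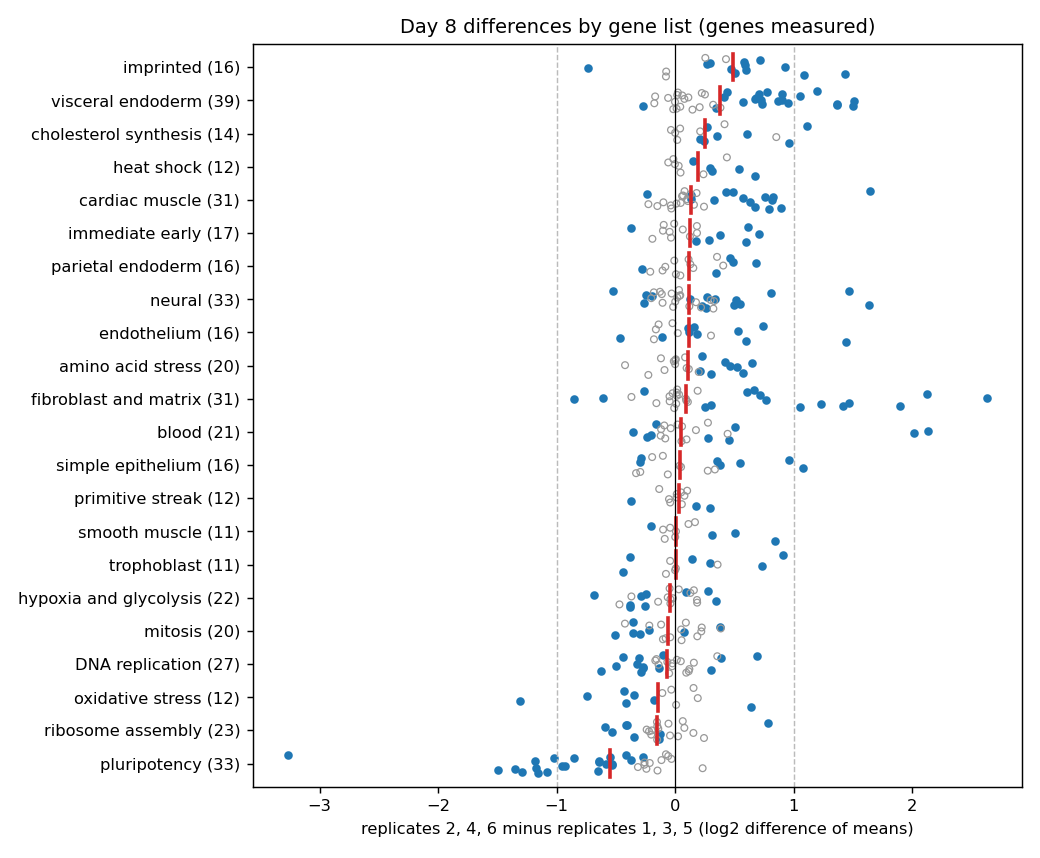
Log2 difference between replicates 2, 4, 6 and replicates 1, 3, 5 for every measured gene of each list. Filled points are genes whose arrays do not overlap between the sets, open points are the others, red bars are list medians, and dashed lines mark 2-fold. Pluripotency lies to the left, while imprinted, visceral endoderm, and fibroblast and matrix genes reach far to the right.

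Pluripotency genes were higher in the odd-numbered arrays. Of 33 measured, 22 were higher in every odd-numbered array than in any even-numbered one (15.3% of all genes), none the other way, and 9 differed at least 2-fold (0.4% of all genes). From day 4 to day 14, 28 of the 33 fell and none rose, against 20.1% and 27.1% of all genes. The mean log2 level of the list lay at 4.39% of the way to day 14 in the odd-numbered arrays and at 59.8% in the even-numbered arrays.

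The extreme case was Zfp42, whose product REX1 is a zinc finger protein used as a marker of the naive ES cell state. Its signal was 5825, 6845 and 7452 in replicates 1, 3 and 5, and 716, 635 and 729.6 in replicates 2, 4 and 6, a 9.64-fold difference of the means. At day 4 its lowest, median and highest signals were 572, 1805 and 2426, at day 14 they were 224, 262 and 626, and in sorted ES cells 5058, 8115 and 9032. The odd-numbered arrays thus exceeded every day 4 array and lay within the range of the sorted cells. The even-numbered arrays lay between the medians of day 4 and day 14. They were also within the range of the undifferentiated gelatin ES cells, 549.5 to 845, so high Zfp42 did not mark all ES cell arrays here.

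Pou5f1, the gene of the reporter used for the sort, behaved otherwise. Replicates 1, 3 and 5 had 2016, 2316 and 2747, and replicates 2, 4 and 6 had 961, 949 and 1210.1 (2.26-fold). Day 4 spanned 2407 to 6651 with a median of 5688, and day 14 spanned 691 to 1485 with a median of 969. Here the odd-numbered arrays lay about midway, at 45.3% of the course, and the even-numbered arrays had reached day 14 (99.5%). A second Pou5f1 probe set differed by only 0.05 between the sets.

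Fbxo15, a known OCT4 target, read 3738, 5212 and 4835 in the odd-numbered and 1574, 1431 and 1873 in the even-numbered arrays. Fgf4, the growth factor by which ES cells prime their own exit from pluripotency, read 3849, 4341 and 5339 against 1537, 1859 and 1882. For both genes the odd-numbered mean stood above the day 4 mean. Dppa4 and Dppa2, a pair of nuclear proteins of early embryo and ES cells, differed by -1.29 and -1.16 on the log2 scale, and the germ cell gene Dppa3 by -1.08. On the course from day 4 to day 14 these 3 genes stood at 8.12%, 4.77% and 8.39% in the odd-numbered arrays, and at 57.2%, 47.6% and 42.1% in the even-numbered ones. Nanog read 6553, 7379 and 8087 against 4571, 5421 and 4685, a smaller gap of 1.5-fold that still left the sets apart. Sox2, which neural cells also express, differed by -0.38 and did not change from day 4 to day 14 by the test (adjusted p = 0.28, limma).

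Visceral endoderm genes showed the reverse. Of 39 measured, 20 were higher in every even-numbered array (18.1% of all genes), 1 was lower, and 6 differed at least 2-fold (1.49% of all genes). Between day 4 and day 14, 31 of them rose and none fell, against 27.1% and 20.1% of all genes. The list stood at 83.1% of that course in the even-numbered and 55.3% in the odd-numbered arrays, so this program was well under way in both sets.

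Apob, the structural protein of lipoproteins, read 4017, 5279 and 4156 in replicates 2, 4 and 6, and 1554, 1691 and 1489 in replicates 1, 3 and 5. Day 4 had a median of 111 and a highest value of 328, and day 14 ranged from 4025 to 9640.0 with a median of 5159. Apob had therefore climbed far above day 4 in all day 8 arrays, and the even-numbered arrays overlapped day 14. Ttr, the transthyretin gene for carriage of thyroid hormone and retinol, read 2694, 2528 and 3025 against 1247, 1441 and 950.5 (2.29-fold). The apolipoprotein genes Apoc2 and Apom were both 2.58-fold higher in the even-numbered arrays, where each passed the day 14 mean, at 120% and 109%. Fga, the fibrinogen alpha chain, was earlier in its course, with 293, 159 and 216 against 69.6, 89.9 and 70.0, and a day 14 median of 806. Igfbp1, a secreted binding protein for insulin-like growth factors, read 2144, 1713 and 2369 against 1065, 1220.1 and 752, and reached a median of 8715 at day 14.

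Not every endoderm gene parted the sets. Afp, the yolk sac albumin, read 301, 359 and 389.5 in the even-numbered and 328, 279 and 339 in the odd-numbered arrays. Apoa1 overlapped too, with 4212, 3650.2 and 4940.5 against 2585, 4448 and 2981. The transcription factor genes that set up endoderm, Gata4, Gata6, Foxa2 and Hnf4a, differed by -0.06, 0.11, 0.08 and -0.17 on the log2 scale, each with overlapping arrays. Of these 4, Foxa2 and Gata6 rose from day 4 to day 14, by 0.86 ± 0.07 and 0.37 ± 0.09 on the log2 scale (SE), while Gata4 and Hnf4a did not pass (adjusted p = 0.074 and 0.44, limma). Other regulators did part the sets, with Foxa1 at 0.67, Foxa3 at 0.69 and Hhex at 0.42, each without overlap. So did the membrane proteins Cubn, an endocytic receptor, at 0.95, and Slc2a2, a glucose transporter, at 0.91. Among secreted products Alb, Ahsg, Apoa4 and Apoe overlapped (0.01, -0.02, 0.04 and 0.32), and Apoc1 was the list member lower in every even-numbered array, at -0.27.

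HNF1, a homeodomain factor of liver and yolk sac endoderm, binds paired sites, each close to GTTAAT, and these letters were searched on both strands in the 250 bases before the gene start. Of the 6 visceral endoderm genes that differed at least 2-fold, 5 had a promoter in the RefSeq table (GRCm38.p6), and 3 of these held the motif, compared with 6.52% of all 27025 promoters. The GATA letters AGATAA were in 0 of the 5 (10.3% of all promoters) and TATAAA in 1, Apob (13% of all). The promoters with the motif are shown because they belong to genes that were higher together in the even-numbered arrays. Capitals mark the motif or its reverse complement, each sequence is written 5′ to 3′ on the gene's strand, and a match of letters is not evidence of binding.
Fga: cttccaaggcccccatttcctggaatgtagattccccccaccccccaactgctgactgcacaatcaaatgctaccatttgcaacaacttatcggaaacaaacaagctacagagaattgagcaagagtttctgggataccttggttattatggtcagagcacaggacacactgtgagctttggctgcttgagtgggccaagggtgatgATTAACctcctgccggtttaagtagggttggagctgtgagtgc
Apoc2: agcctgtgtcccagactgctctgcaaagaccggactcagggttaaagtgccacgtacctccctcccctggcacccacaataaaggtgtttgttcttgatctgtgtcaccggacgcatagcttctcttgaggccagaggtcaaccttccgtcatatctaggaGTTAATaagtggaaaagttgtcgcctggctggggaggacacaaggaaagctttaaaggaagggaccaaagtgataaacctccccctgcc
Igfbp1: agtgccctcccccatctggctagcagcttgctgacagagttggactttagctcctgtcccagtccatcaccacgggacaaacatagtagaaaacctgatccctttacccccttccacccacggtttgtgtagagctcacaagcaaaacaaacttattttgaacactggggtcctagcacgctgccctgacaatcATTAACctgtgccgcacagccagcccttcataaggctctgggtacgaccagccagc
The Fga sequence lies at chr3:83025903-83026152 on the plus strand, that of Apoc2 at chr7:19677942-19678191 on the minus strand and that of Igfbp1 at chr11:7197537-7197786 on the plus strand. The motifs lie at -43 to -38, -89 to -84 and -56 to -51 from the gene starts.

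Cardiac muscle genes differed in part. Of 31 measured, 14 were higher in every even-numbered array and 1 was lower, against 18.1% and 15.3% of all genes, and Tnnt2 alone passed 2-fold. From day 4 to day 14, 19 rose (27.1% of all genes) and none fell. The list stood at 122% of that course in the even-numbered arrays, past the day 14 mean, and at 63.2% in the odd-numbered arrays. Tnnt2, cardiac troponin T, read 1024, 858 and 903 in replicates 2, 4 and 6, and 339.9, 372 and 204 in replicates 1, 3 and 5 (3.13-fold). Day 4 stayed between 102 and 118, and day 14 between 667 and 1209. The even-numbered arrays were already within the day 14 range and the odd-numbered arrays lay between the time points. Atrial light chain Myl7 read 1157, 989 and 949 against 604, 646 and 501. The even-numbered mean of Myl7 exceeded that of day 14, at 157% of the course. Alpha myosin heavy chain Myh6 and cardiac actin Actc1 differed by 0.81 and 0.79 on the log2 scale with no overlap, the latter on a probe set that may read related actins. Ankrd1, a muscle ankyrin repeat protein, was second on the list at 0.89, and Isl1, a factor of heart progenitors, stood at 0.64, both without overlap. The contractile genes Myh7, Tnni3 and Actn2 overlapped, at 0.10, 0.08 and -0.03. Nkx2-5, the early cardiac transcription factor, overlapped between the sets (463, 444 and 463 against 500.1, 341 and 494) and did not pass from day 4 to day 14.

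Of 21 blood genes, 5 were higher in every even-numbered array and 4 in every odd-numbered one, against 18.1% and 15.3% of all genes. The differences over 2-fold were made up by 2 embryonic globins. The list stood at 156% of the course to day 14 in the even-numbered and 85.9% in the odd-numbered arrays. Hbb-y, the beta-like chain of primitive red cells, read 8498, 4343 and 4321 in replicates 2, 4 and 6, and 2406, 1170.0 and 665 in replicates 1, 3 and 5, on a probe set that may read related globins. Hba-x, the matching alpha-like chain, read 4801, 1739.8 and 2183 against 1465, 689 and 271. At day 14 the medians were 1689.7 and 805, below all even-numbered arrays for both genes. Replicate 2 was highest in its set and replicate 1 in the other, and the scatter within the sets was wide (0.77 and 1.02 on the log2 scale). The other 19 blood genes stayed under 2-fold. A further embryonic globin, Hbb-bh1, went the other way at -0.36 on the log2 scale without overlap, as did the erythropoietin receptor Epor (-0.24) and the transcription factor genes Gfi1b (-0.20) and Spi1 (-0.16).

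In endothelium 8 of 16 genes were higher in every even-numbered array and 2 lower, against 18.1% and 15.3% of all genes. Cdh5, the cadherin of endothelial junctions, read 1566, 860.0 and 636 in the even-numbered against 402, 314 and 335 in the odd-numbered arrays (2.72-fold). The receptors Kdr, for VEGF, and Tek, for angiopoietins, differed by 0.53 and 0.74 on the log2 scale. The lower genes were Eng at -0.47 and Ets1 at -0.11. Another 6 overlapped, among them Pecam1 at -0.16, Tie1 at -0.14, Emcn at -0.18 and Fli1 at 0.30. The list stood at 98.5% of the course to day 14 in the even-numbered and 49.0% in the odd-numbered arrays.

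Matrix genes held the largest even-higher difference of the 22 lists. Of 31 fibroblast and matrix genes, 7 were at least 2-fold higher in the even-numbered arrays (1.49% of all genes) and none in the odd-numbered. Without a minimum size 13 were higher and 3 lower, against 18.1% and 15.3% of all genes. The lower ones were Lox, an enzyme that crosslinks collagen, at -0.85, Mfap5 at -0.61 and Thy1 at -0.27. Lum, the proteoglycan lumican, read 3036, 1935 and 1591 in the even-numbered against 463, 305 and 276 in the odd-numbered arrays (6.22-fold), with 209 to 273 at day 4 and a day 14 median of 5228. Postn, the matricellular protein periostin, read 2569, 1073 and 1098 against 527, 285 and 240.4. Col3a1, a fibrillar collagen, read 3493, 2726 and 2463 against 984, 835 and 550.5. In all 3 genes replicate 2 was highest, the even-numbered means reached 66.2% to 71.3% of the course, and the odd-numbered means reached 11.4% to 24.5%. Col1a2 differed 2.67-fold on its brightest probe set but by -0.09 on another. The list as a whole was at 38.6% in the even-numbered arrays and at -11.1%, below the day 4 mean, in the odd-numbered ones. In mean log2 signal the odd-numbered arrays, at 8.77 to 8.87, lay within the day 4 range of 8.66 to 9.38.

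Neural genes stood nearer to day 4 in both sets. Of 33 measured, 11 were higher in every even-numbered array and 4 lower, against 18.1% and 15.3% of all genes. The lower ones were Tubb3 at -0.52, Hes5 at -0.27, Pou3f2 at -0.25 and Pax2 at -0.20 on the log2 scale. The list stood at 12.5% of the course in the even-numbered and -28.0% in the odd-numbered arrays, below the day 4 mean. In mean log2 signal the odd-numbered arrays, at 8.45 to 8.62, overlapped those of day 4, at 8.51 to 8.80. Zic1, a zinc finger factor of dorsal neural tissue, read 969.6, 484 and 313 in the even-numbered against 223, 142 and 219 in the odd-numbered arrays, and rose to a median of 2462 at day 14. Fabp7, the fatty acid carrier of radial glia, read 805, 873 and 279.9 against 218, 189 and 160.4. In both genes replicate 6 was the even-numbered array closest to the odd-numbered ones.

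Imprinted genes, which are expressed from the allele of a single parent and often control growth, included 11 of 16 that were higher in every even-numbered array (18.1% of all genes). Dlk1, a membrane ligand made in embryonic mesoderm, read 2476, 2072 and 2099.7 in the even-numbered against 855, 856 and 747 in the odd-numbered arrays. Cdkn1c, an inhibitor of cyclin-dependent kinases, read 4710.4, 3490.5 and 4262 against 1884, 2304 and 1690.1. The exception was Meg3, the noncoding RNA encoded beside Dlk1, which read 661, 755 and 811 in the even-numbered and 1270.3, 1409 and 1042 in the odd-numbered arrays. A second Meg3 probe set differed by -1.41 in the same direction. Meg3 did not change from day 4 to day 14 (0.06 ± 0.06 on the log2 scale, SE, adjusted p = 0.41, limma), and its odd-numbered values exceeded all arrays of both.

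The trophoblast list had a median of 0.01, which turned to -0.0491 with median centering. Of its 11 genes, 4 were higher and 2 lower without overlap, against 18.1% and 15.3% of all genes, and none differed by 2-fold. The lower ones were the trophoblast factor genes Cdx2 at -0.44 and Tfap2c at -0.38, and Tpbpa, a marker of spongiotrophoblast, was the highest at 1.89-fold. Some placental genes outside the list were chosen after their values were seen, from the called genes, so they say nothing about placental genes at large. Prl4a1 read 806, 702 and 769 in the even-numbered against 357, 295 and 324 in the odd-numbered arrays, and the related prolactin family genes Prl2b1 and Prl7d1 differed by 1.25 and 1.34. Plet1, an epithelial marker of extraembryonic ectoderm, read 1798, 1595 and 1697 against 718, 756 and 797. Ceacam9, a trophoblast surface protein, read 895, 749 and 712 against 317, 228 and 278, above the day 14 range of 305 to 616.

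In cell cycle, ribosome, metabolic and stress lists, differences over 2-fold were few, at 1 gene for cholesterol synthesis and 1 for oxidative stress. The DNA replication list had 10 of 27 genes higher in every odd-numbered array and 3 in every even-numbered one, the ribosome assembly list 7 and 1 of 23, and mitosis 5 and 2 of 20, where 15.3% and 18.1% of all genes did so. Their medians were -0.07, -0.15 and -0.06, and that of mitosis turned to 0.05 without replicate 6. None of these genes reached 2-fold at its brightest probe set. Cholesterol synthesis had a median of 0.26, above that of the cardiac and endothelial lists, with 7 of 14 genes higher in every even-numbered array (18.1% of all genes) and none lower. Its largest members were the late enzymes Sc5d at 1.12 and Cyp51 at 0.96. The heat shock and amino acid stress lists had medians of 0.20 and 0.11, with 5 of 12 and 8 of 20 genes higher and none lower. The oxidative stress list ran the other way at -0.14, led by the glutathione transferase Gsta4 at -1.31. For hypoxia and glycolysis 6 of 22 genes were higher in every odd-numbered array and 3 in every even-numbered one. The median of that list moved from -0.04 to 0.01 without replicate 6. On the course from day 4 to day 14 it stood at 87.4% in the odd-numbered and 74.4% in the even-numbered arrays. In mean log2 signal the sets overlapped, at 11.98 to 12.05 and 11.80 to 12.06. Day 4 replicates 1 to 5 lay at 11.05 to 11.19 but replicates 6 and 7 at 11.95 and 12.21, so the day 4 mean is a poor start for this course.

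For primitive streak (12 genes), smooth muscle (11), simple epithelium (16), parietal endoderm (16) and immediate early genes (17), the medians were 0.03, 0.01, 0.04, 0.12 and 0.12, and the first 3 turned below 0 with quantile normalization and with median centering. Only the epithelial list had a member past 2-fold, the desmosome gene Dsp, which read 3516, 3499.8 and 1979 in the even-numbered against 1306, 1423 and 1392 in the odd-numbered arrays. In the parietal endoderm list Pth1r, a receptor that drives parietal differentiation, was highest at 0.68.

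**Figure D4:**
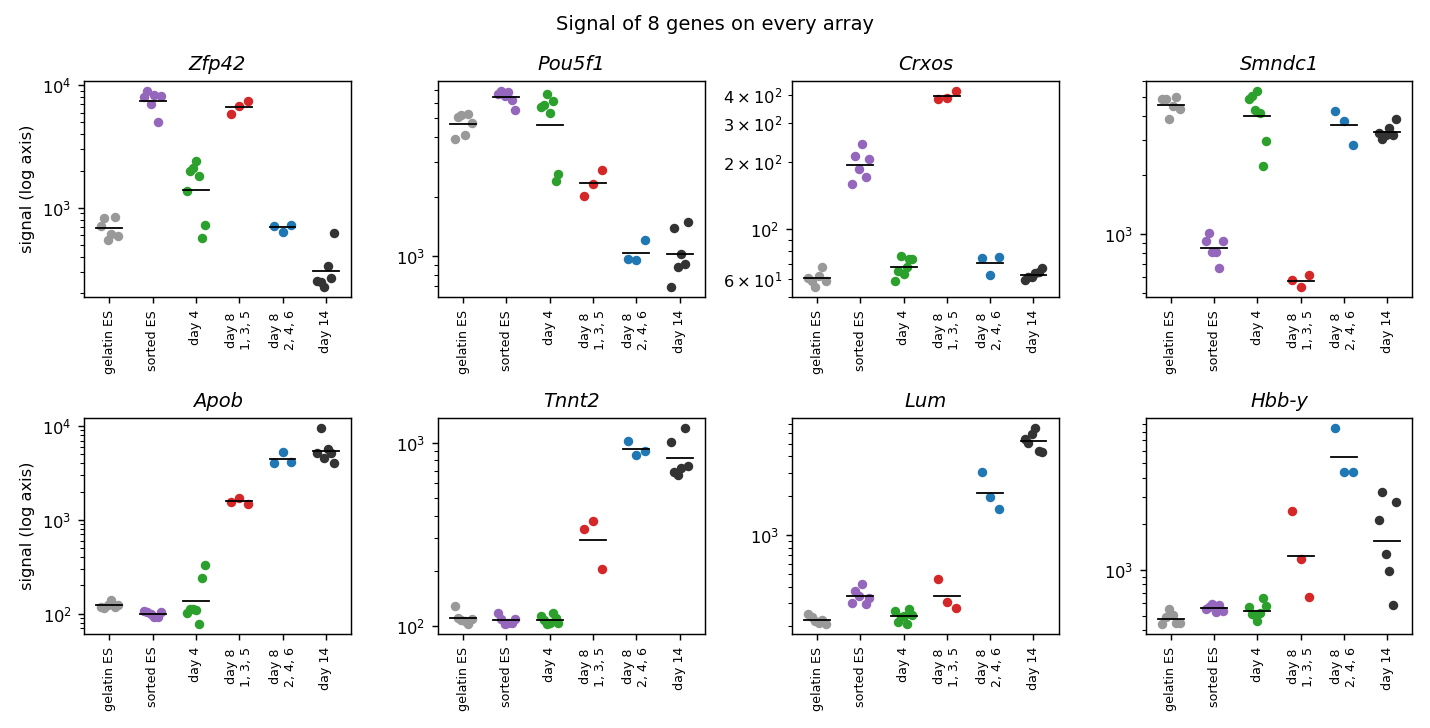
Signal of 8 genes on every array, on log axes, with a line at each group's geometric mean. For Apob, Tnnt2 and Lum the odd-numbered day 8 arrays (red) lie between day 4 and the even-numbered ones (blue), whereas for Zfp42, Crxos and Smndc1 they lie near or beyond the sorted ES cells.

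The day 8 arrays were also placed relative to the sorted ES cells, a comparison chosen after the values were seen. At 126 probe sets (1.01%, or 1.03% of genes) the sorted cells differed from the gelatin, day 4 and day 14 arrays by at least 2-fold with no overlap (limma, adjusted p under 0.05, day 8 left out), 45 higher and 81 lower. A position of 0% here is the mean of those 3 groups, and 100% is the sorted mean. The median position was 42.9%, 40.9% and 47.2% in replicates 1, 3 and 5, and -2.54%, -2.37% and 8.74% in replicates 2, 4 and 6. Day 4 arrays ran from 9.01% to 32.02%, gelatin arrays from -8.88% to -2.63% and day 14 arrays from -15.8% to -4.51%. The odd-numbered arrays were thus beyond every other unsorted array on this scale, while the even-numbered arrays were among them. The probe sets were kept only where no gelatin, day 4 or day 14 array overlapped the sorted cells. Day 8 arrays were not filtered in this way, so the place of the odd-numbered arrays beyond those groups is partly built in. The filter treated both day 8 sets alike. At 37 of the 126 probe sets (29.4%) the odd-numbered arrays differed at least 2-fold and without overlap toward the sorted cells, and at 0 away from them, while 1.88% of all probe sets were called in either direction.

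**Figure D5:**
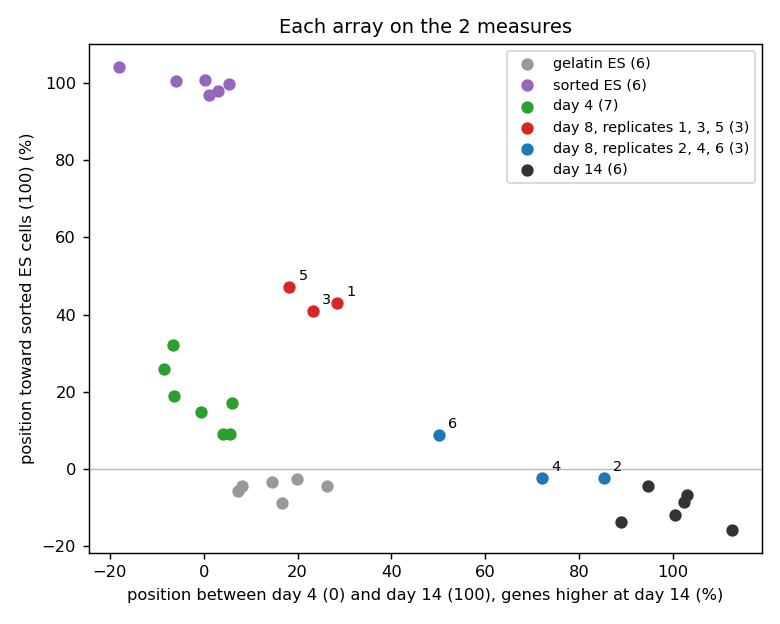
Each array by its position between day 4 and day 14 (x axis, probe sets higher at day 14) and its median position toward sorted ES cells (y axis, 0 is the mean of gelatin, day 4 and day 14). Numbers are day 8 replicates. Replicates 1, 3 and 5 lie apart from all other groups, and replicates 2 and 4 lie nearest to day 14. Probe sets of the y axis were chosen to separate sorted cells from the gelatin, day 4 and day 14 arrays, with day 8 left out.

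Crxos, an ES cell homeobox gene, read 385, 389 and 417 in replicates 1, 3 and 5, and 74.7, 62.5 and 75.3 in replicates 2, 4 and 6. It read 159.8 to 239.9 in sorted cells and at most 76.4 in any gelatin, day 4 or day 14 array. The odd-numbered arrays thus exceeded even the sorted cells. Smndc1, a splicing factor related to the survival of motor neuron protein, was the mirror image, at 579, 533 and 616 in the odd-numbered and 4257, 3779.9 and 2854 in the even-numbered arrays. Sorted cells read 669 to 1012, day 4 2220.1 to 5372 and day 14 3053 to 3856. Gas5, a host RNA of small nucleolar RNAs, read 3691, 3646 and 3622 against 10257, 9133 and 9688, with 3522 to 4371 in the sorted cells. For Smndc1 and Gas5 the change from day 4 to day 14 did not pass (adjusted p = 0.18 and 0.11, limma).

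Prrc1 read 4610.3, 5012 and 4787 in the odd-numbered against 1939, 1677 and 2245 in the even-numbered arrays, close to the sorted cells (4135 to 4544). The epoxide hydrolase gene Ephx2 and the interferon-induced GTPase gene Gbp2b differed by -1.34 and -1.43 and were likewise higher in sorted cells. A single probe set of Prdx2, an antioxidant peroxiredoxin, differed by 2.26 on the log2 scale and of Bub1, a mitotic checkpoint kinase, by 2.00, both lower in the odd-numbered arrays and in sorted cells. The brightest probe sets of these genes differed by 0.04 and -0.04, and both genes were named after their values were seen. Other genes of the sorted cells were not shared. Ipp and Calml4 read 2918 to 5045 and 1214 to 1768 in sorted cells, but 489.9 to 603 and 235 to 274 in the odd-numbered arrays, which is within the range of the other unsorted groups.

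A further group of genes was at levels in the odd-numbered arrays that no other group reached. Sfrp1, a secreted WNT antagonist, read 1364, 1326 and 1147 in the odd-numbered against 252, 337 and 350.3 in the even-numbered arrays, with at most 280.2 in sorted cells and 571 at day 14. Angpt2, a ligand of the endothelial receptor Tek, read 1358, 1167 and 1394 against 501, 473 and 506, with at most 1101 elsewhere, in a sorted array. Eif2s3y, a translation factor subunit encoded on the Y chromosome, read 2447, 2608 and 2434 against 579, 358 and 366, on a probe set that may read related sequences. Its X-linked counterpart Eif2s3x overlapped between the sets and differed by 0.30. Knop1, a nucleolar protein, and Snhg6, another snoRNA host, were lower in the odd-numbered arrays than in any other: 325, 337 and 313 for Knop1, and 1153, 1059.5 and 1194 for Snhg6, where the even-numbered arrays read 5112, 4507 and 4995.

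Of the 14 odd-higher genes whose odd-numbered mean lay beyond the day 4 and day 14 arrays, 11 had a sorted mean beyond them on the same side. For the even-higher genes this held for 15 of 27. Over all genes with an odd-numbered mean beyond those arrays it held for 248 of 866 (28.6%).

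Differences at a single probe set were often not seen at another of the same gene. Of the 156 called genes, 39 had a second probe set, and 21 of the other probe sets were bright enough to read (above the dimmest 40%). Of these 21, 14 differed in the same direction, 15 differed by less than 0.5 in size, and 4 met the same rule. Rab6a, a Golgi GTPase, read 4061, 5311 and 4694 in the even-numbered against 994, 919.8 and 864 in the odd-numbered arrays at one probe set but differed by -0.10 at the other. Snhg6 differed by 2.10 and 0.14, and Gas5 by 1.41 and 0.28. One called gene annotated to a microRNA is counted and not named.

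The sets also differed in a sign of RNA quality. The ratio of 3′ to 5′ signal for Gapdh was 2.46, 2.61 and 2.29 in replicates 2, 4 and 6, and 2.25, 2.11 and 2.17 in replicates 1, 3 and 5. The sets did not overlap in this ratio, and all 6 values lay within the span of the day 4 and day 14 arrays (2.06 to 4.40). The ratios for Actb, Tfrc and Pcx overlapped between the sets. By chromosome, median differences lay between -0.03 and 0.05 on the autosomes and X, and at -0.12 over the 7 genes on Y, of which Eif2s3y was called. The part of RNA quality in the differences was not tested.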

How the data were processed

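RNA of each sample was amplified in 2 rounds and hybridized to an Affymetrix MgU74Av2 array. The deposited values are the authors' dChip-normalized signal intensity per probe set on a linear scale, with 104 values of 0 among 387128. Normalization ties the arrays together, and the cause of any shift it left was not tested. The labels' days were followed; the methods name 12 days where the labels give 14.

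Signals were raised to a floor of 59.6, the 5th percentile, and log2 transformed. The array holds 12488 probe sets; without its 66 controls, 10833 carried a single gene symbol (396 several, 1193 none). Day 14 was compared with day 4 by limma 3.58.1 in R 4.3.3 (trended eBayes, Benjamini-Hochberg) with day 8 left out. On simulated data of that comparison, 58 of 67 probe sets changed by 0.5, 64 of 67 by 1 and 66 of 66 by 2 on the log2 scale were recovered, with 16 false calls among 12422. A gene was taken at its brightest probe set. Named genes are the 15 with the largest difference in each direction among those without overlap, up to 5 members a list with the largest difference, the 5 that changed most each way from day 4 to day 14, a set of common stage markers, and those stated as chosen after their values were seen. List members outside this rule, and genes at the 2-fold limit, were also named after their values were seen. The arrays, the members and the gene lists were all chosen with earlier results of these data known. Probe sets shared by gene families (Eif2s3y, Hbb-y, Igfbp1, Actc1, Prl2b1, Sc5d, Knop1) are uncertain. Alternatives covered normalization, floor, dim probe sets, array weights, fold size, probe set choice and leaving out arrays. The number of arrays limits the precision.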

Additional observations from a re-analysis of the deposited data

Results flagged for a closer look

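Within groups of 4 to 10 arrays, 229 sets of values were examined for an array far from the others. In 8 of them an array's gap to its nearest neighbor was a large share of the group's range. Chance gives about 1 in 20, so 8 of 229 was below that rate. The rate takes a group as a single cluster, whereas the day 8 arrays were parted into sets. In the day 8 group the gap over range was 0.703 for the DNA replication list and 0.693 for the mitosis list, both with replicate 6 lowest (10.5 and 10.9 in mean log2 signal). It was 0.648 for Evx1 and 0.662 for Foxa2, both with replicate 6 highest (signals of 603 and 1372). It was 0.687 for Nkx2-5, where replicate 3 was lowest (341), and 0.719 for Wnt3a, where replicate 4 was lowest (370.1). At day 4 it was 0.585 for the oxidative stress list, with replicate 6 lowest, and at day 14 it was 0.812 for the position on falling genes, with replicate 6 at 84.3%.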

How the results depend on the processing

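Of the values for counts, positions and list medians under alternative settings, 404 moved little, 45 moved and 11 changed sign. The even-higher and odd-higher counts were 121 and 27 without dim probe sets, 624 and 170 at 1.5-fold, and ranged from 143 to 322 and 38 to 53 when an array was left out. With quantile normalization and median centering 76.5% of these calls were even-higher, against 81.5%. Median centering gave 4491 probe sets lower at day 14. For the odd-numbered arrays the position on falling genes was 49.2% with array weights and 61.9% without day 4 arrays 6 and 7 (a setting chosen after seeing the data), with a range of 27.2% to 48.4% when an array was left out. There the even-numbered position was 79.3%. On rising genes the odd-numbered position was 17.6% with all passing probe sets and 32.8% without those 2 arrays. The replicate numbers did not pair the samples by the rule that every pair correlate above 0.1 (deviations correlated at -0.24 to 0.15 between day 4 and day 14, -0.12 to 0.43 between day 4 and day 8, and -0.32 to 0.08 between day 8 and day 14). With replicate number as a block, 3092 probe sets were higher and 2313 lower at day 14, and the odd-numbered position on falling genes was 41.9%.

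With quantile normalization the list medians were -0.0318 for smooth muscle, -0.00689 for primitive streak, -0.0116 for blood, -0.0106 for simple epithelium, -0.14 for DNA replication, -0.209 for ribosome assembly, 0.0311 for amino acid stress and 0.0732 for immediate early genes. With median centering they were -0.0483 for smooth muscle, -0.0229 for primitive streak, -0.00215 for blood, -0.0491 for trophoblast, -0.0116 for simple epithelium, -0.206 for ribosome assembly, 0.0792 for cardiac muscle, 0.0589 for endothelium, 0.0509 for amino acid stress and 0.0695 for immediate early genes. A floor at the 25th percentile gave 0 for neural genes. Without dim probe sets they were 0.0225 for endothelium, 0.246 for fibroblast and matrix, 0.146 for trophoblast and 0.0647 for immediate early genes. When all probe sets of a gene were averaged they were 0.24 for cardiac muscle, 0.28 for endothelium, 0.18 for immediate early genes, 0.10 for heat shock, -0.0718 for oxidative stress and 0.28 for imprinted genes.

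When a day 8 array was left out, medians ranged from 0.0174 to 0.0754 for smooth muscle, -0.181 to -0.0994 for ribosome assembly, 0.0816 to 0.142 for amino acid stress, 0.0677 to 0.254 for heat shock, 0.0696 to 0.167 for immediate early, 0.30 to 0.43 for visceral endoderm, -0.12 to 0.05 for mitosis and -0.13 to 0.01 for hypoxia and glycolysis genes. Without replicate 6 mitosis was 0.0516 and hypoxia and glycolysis 0.00547. All 20 alternatives for the position toward sorted ES cells stayed within 1 SD. The causes of these shifts were not tested.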
